A study of Mus musculus with 12 samples.

Results

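The regions described here are 973 binding sites of GLI1 in mouse cardiac progenitor cells with no other listed site within 10 kb. An interval of histone H3 lysine 27 acetylation (H3K27ac) was listed at them only once GLI1 had been induced. They were chosen by measured values. A site was taken when no other GLI1 site started within 10 kb and when at least 1 bp of its 101 bp lay in an H3K27ac interval of induced cells and none in an interval of uninduced cells. They make up 37.4% of the 2605 listed GLI1 sites and 48.6% (95% Wilson interval 46.4 to 50.8) of the 2002 solitary ones.

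The cells came from mouse embryonic stem cells of the line GLI1-FTA, in the A2Lox.cre background, and had been differentiated to day 6. Induced cells received doxycycline at 500 ng/ml for the 24 hours from day 5, and control cells of the same line received none. There were 12 samples in 6 groups of 2, namely GLI1 pulldown, H3K27ac immunoprecipitation and input from induced and from control cells, and the tagged GLI1 was captured through its Avi-tag on streptavidin beads. The values come from 3 lists that each pool the samples of a group: GLI1 sites of induced cells, and 76437 and 67463 H3K27ac intervals of induced and control cells. Since each condition is 1 pooled list, no spread between replicates could be given and no difference was tested. All samples are of 1 line and none is of cells given doxycycline without GLI1, so the drug and the factor cannot be told apart. The pulldown from control cells and the inputs were not analysed here.

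GLI1 is a zinc finger transcription factor that carries the response to Hedgehog ligands: the ligand binds the receptor Patched, the membrane protein Smoothened is released, and GLI factors switch on their targets, among them Patched and Gli1 itself. In the embryo this pathway acts on second heart field progenitors, which build the outflow tract and the atrial septum, and on the floor plate and other tissues. H3K27ac marks nucleosomes beside active promoters and enhancers, so an enhancer bound by a factor often shows acetylated nucleosomes on both sides of a gap at the factor itself.

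Sequence could be read only where a site lay whole in a promoter window of RefSeq (build GRCm38.p6, 250 bases before to 50 after an annotated start), which held for 5 of the 973 sites. They are shown because they let the letters of a newly acetylated site be set beside its strength. Capitals mark the best match to the GLI consensus GACCACCCA, searched on both strands, and each line is read 5′ to 3′ on the strand that holds the match.
1700016P04Rik promoter, chr6:13413181-13413281, minus strand, exact match: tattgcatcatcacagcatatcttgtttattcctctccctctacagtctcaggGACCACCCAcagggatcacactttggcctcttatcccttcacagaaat
Gm5127 promoter, chrX:106582989-106583089, minus strand, 1 mismatch: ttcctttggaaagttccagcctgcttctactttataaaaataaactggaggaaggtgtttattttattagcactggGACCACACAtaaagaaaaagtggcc
Gm31845 promoter, chr16:95668159-95668259, plus strand, 3 mismatches: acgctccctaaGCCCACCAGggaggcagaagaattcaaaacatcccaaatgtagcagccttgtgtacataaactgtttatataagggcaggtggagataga
Gm31014 promoter, chr9:116054555-116054655, minus strand, 3 mismatches: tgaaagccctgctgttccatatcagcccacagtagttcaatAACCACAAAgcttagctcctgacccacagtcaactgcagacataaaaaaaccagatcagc
Gm41862 promoter, chr19:53084903-53085003, plus strand, 3 mismatches: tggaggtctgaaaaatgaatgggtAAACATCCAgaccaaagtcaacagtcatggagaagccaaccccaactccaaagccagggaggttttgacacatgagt
For comparison, these are the 2 solitary sites with an exact match that were already acetylated in control cells.
Uaca promoter, chr9:60794197-60794297, plus strand: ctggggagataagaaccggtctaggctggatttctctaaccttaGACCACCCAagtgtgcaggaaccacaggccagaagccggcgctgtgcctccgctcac
Slc25a53 promoter, chrX:137038325-137038425, plus strand: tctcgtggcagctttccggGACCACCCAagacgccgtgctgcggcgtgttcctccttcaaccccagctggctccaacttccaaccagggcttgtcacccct

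The deposited strength of a GLI1 site is its −log10 q, and the deposited strength of an H3K27ac interval is its fold enrichment, the ratio of signal to local background at its highest summit. The exact match at 1700016P04Rik had a GLI1 −log10 q of 46.4 and an H3K27ac fold enrichment of 7.78 in induced cells. The site with 1 mismatch, at Gm5127 and within the leukotriene receptor gene Cysltr1, had 159 and 14.7. The 3 sites with no closer match than 3 mismatches ranged from weakly to strongly bound. The site at Gm31845, which lies 34148 bp from the ETS family factor gene Ets2, had a GLI1 −log10 q of 168 and a fold enrichment of 29.7. The sites at Gm31014 and Gm41862 had GLI1 −log10 q of 56.0 and 19.6, with fold enrichments of 13.4 and 22.9. The exact matches at Uaca and Slc25a53 had a GLI1 −log10 q of 53.0 and 26.5, and their fold enrichments were 26.0 and 21.7 in control against 34.7 and 25.1 in induced cells. Over all 24 GLI1 sites that lay whole in a promoter window, 9 (37.5%) held the consensus with at most 1 mismatch, against 2.37% of the middle 101 bases of 32851 promoter windows. Of the 24, 5 were newly acetylated, with 2 such matches, and 13 were already acetylated, with 7. The name of the deposited list says that every site holds a Gli motif. A share above that of unselected windows was thus set in advance, and nothing is read from it. Which motif and which score were asked for is not stated in the sources used here, and no match says only that these letters are not in the window.

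H3K27ac at the 973 sites ran from barely detected to among the strongest of the induced cells. The fold enrichment was lowest at 2.34 and highest at 42.6, with a median of 9.91 (95% interval of the median over sites 9.18 to 10.5) and quartiles of 6.48 and 15.6. The intervals were 200 to 12428 bp wide with a median of 1980, and each of the 973 sites lay in an interval of its own. Of all 76437 intervals of induced cells, 43.8% met no control interval, and since this contrast chose the sites nothing is read from it. The 424 solitary sites that were acetylated in both conditions had a higher median of 18.9 (17.5 to 20.3) in induced cells, in wider intervals of 3371.5 bp, and a median of 9.92 in control cells. These fold enrichments come from separately called lists without a common scale.

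Most new intervals of the genome were far weaker than those at these sites. The 32534 intervals of induced cells that met neither a control interval nor a GLI1 site had a median fold enrichment of 3.46 and a median width of 335 bp. For a like comparison only the 797 newly acetylated sites (81.9%) whose whole interval met no control interval were used, and their median was 8.86. Of these 797, 765 (96.0%) lay above the median of new intervals without a site and 495 (62.1%) above its 95th percentile of 7.35. A fold enrichment of at least 20 was reached by 99 of the 797 (12.4%) and by 33 of the 32534 (0.101%). Among the 100 strongest intervals present only in induced cells, 62 held one of the 973 sites and 85 held a GLI1 site of any kind. Of all 33496 such intervals, 797 held one of the 973 sites and 32534 held no GLI1 site. The 797 had a median width of 1786 bp, and a wider interval has more room to meet a site. High values were not particular to solitary sites, since the 344 clustered newly acetylated sites had a median of 15.5 (13.9 to 16.6), against 9.91 at all 973.

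**Figure D1:**
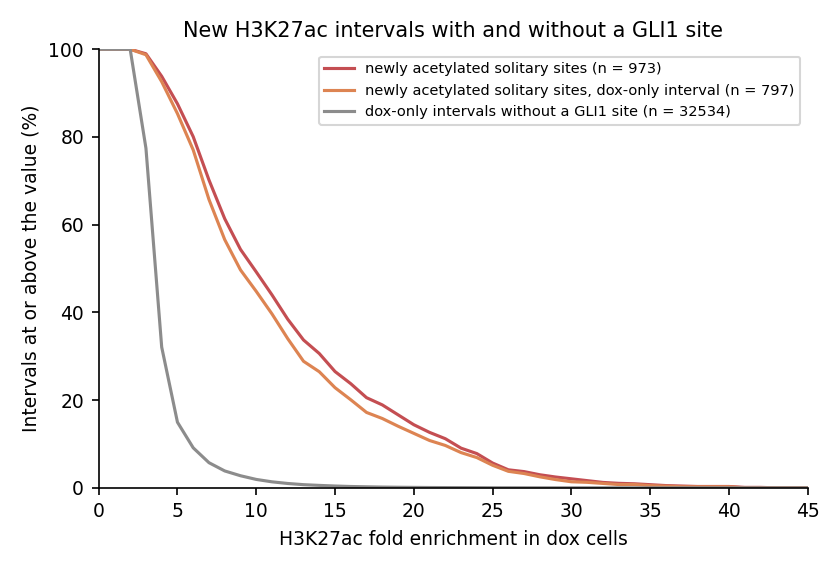
The percentage of intervals (vertical axis) at or above each H3K27ac fold enrichment in induced cells (horizontal axis) is drawn for all 973 newly acetylated solitary sites, for the 797 whose interval met no control interval, and for 32534 new intervals without a GLI1 site. At a fold enrichment of 10 the curves stand at 49.2%, 44.8% and 1.92%.

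At the other 176 sites (18.1%) the interval of induced cells met a control interval somewhere else along its length, so the site lay just outside a stretch that was already acetylated in control cells. These sites lay a median of 185.5 bp from the control interval, which was modest, with a median fold enrichment of 4.35. Their own median in induced cells was 13.9, which the rule favoured by asking for an induced interval at the site. The distance to any control interval was wide over the whole set. No control interval lay within 1000 bp of 812 sites (83.5%), within 10000 bp of 531 (54.6%) or within 50000 bp of 185 (19.0%). The 185 most remote sites had a median fold enrichment of 9.29 (8.21 to 10.8), within the interval around the median of all 973, and the 161 sites with a control interval no more than 1000 bp away had 12.7 (10.8 to 14.1).

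A site without a control interval is one where the authors' caller listed none, which does not show that acetylation was absent. The 1180 control summits that barely passed the caller's threshold (−log10 q under 1.5) had fold enrichments of 2.07 to 2.61, and 967 of the 973 sites (99.4%) stood above 2.61 in induced cells, 846 of them (86.9%) above 2 times that value. The lists have no common scale, so these shares do not tell how often weak acetylation went unlisted in control cells. The running numbers of the control list skip in 335 stretches, and 14 of the sites lie in such a stretch, so whether a control interval lay there is not known. The other 959 are not affected, and no site named below is among the 14.

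New acetylation was more frequent among solitary sites the more strongly GLI1 was bound. Solitary sites were divided into 4 strength classes of about equal size. In the class with the lowest GLI1 −log10 q (2.70 to 19.3), 196 of 502 (39.0%, 34.9 to 43.4) were newly acetylated. The share was 42.6% in the second class, 50.6% in the next and 62.4% (58.1 to 66.5) in the strongest, where 312 of 500 sites from 57.3 to 503 were new. The sites without an overlapping interval went the other way and made up 39.6% of the weakest class and 17.2% of the strongest. Of these 594 sites, 368 had an interval of induced cells but no control interval within 500 bp, so the class cannot be taken as unacetylated. The share already acetylated in control cells was 20.7% in the weakest class and did not exceed 22.3% in any.

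**Figure D2:**
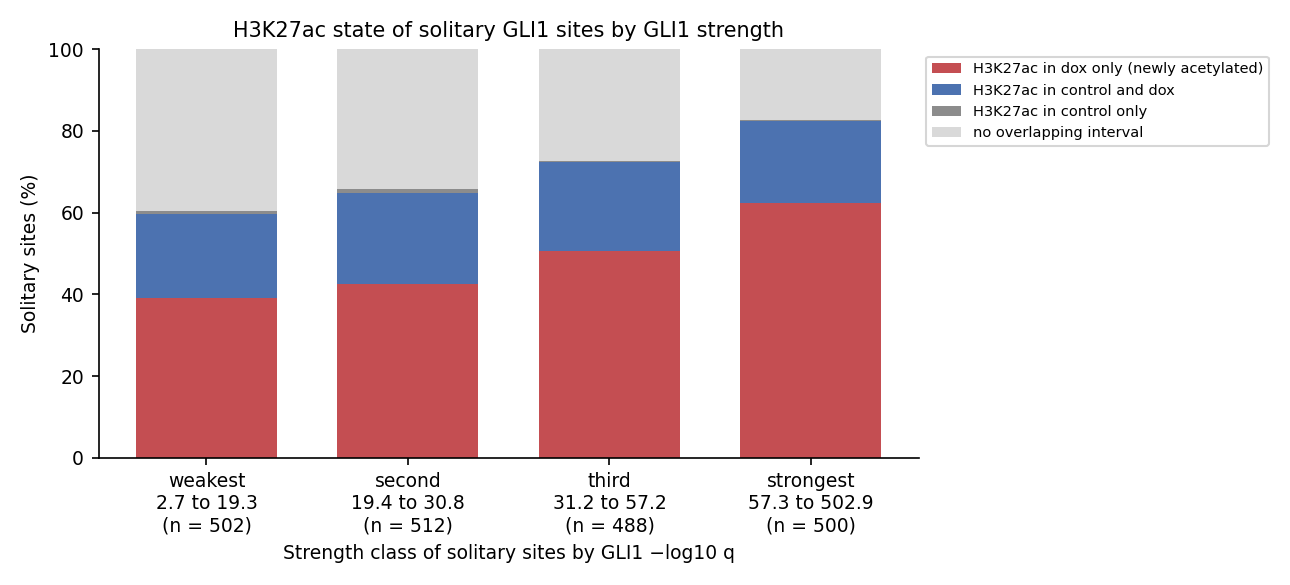
Stacked bars give the percentage of solitary GLI1 sites (vertical axis) in each H3K27ac state for the 4 strength classes of GLI1 −log10 q (horizontal axis, 488 to 512 sites each). The newly acetylated share grows from 39.0% to 62.4% while the share acetylated in both conditions stays near 21.2%.

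The fold enrichment of the interval in induced cells also went with GLI1 strength. It is that of the highest summit anywhere in the interval. Nothing was subtracted at the 176 sites whose interval met a control interval. Over the 973 sites the median GLI1 −log10 q was 37.3 (35.0 to 40.3), with a lowest value of 3.52 and a highest of 478. It was 30.3 (27.9 to 33.4) at already acetylated solitary sites and 25.03 (23.7 to 26.7) at those without an overlapping interval. The median fold enrichment of the newly acetylated sites was 7.13, 7.46, 10.2 and 15.7 from the weakest to the strongest class, and the median width of the interval was 1450, 1433, 2062 and 2878 bp. The intervals over sites of the lower pair of classes overlapped (6.48 to 7.84 and 6.91 to 8.03), and that of the strongest (14.7 to 16.5) overlapped no other. They do not measure the spread between replicates. As a description across the 973 sites, which all come from the same pooled libraries, Spearman's rho was 0.50 between GLI1 −log10 q and fold enrichment, 0.43 between GLI1 −log10 q and width and 0.82 between fold enrichment and width.

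**Figure D3:**
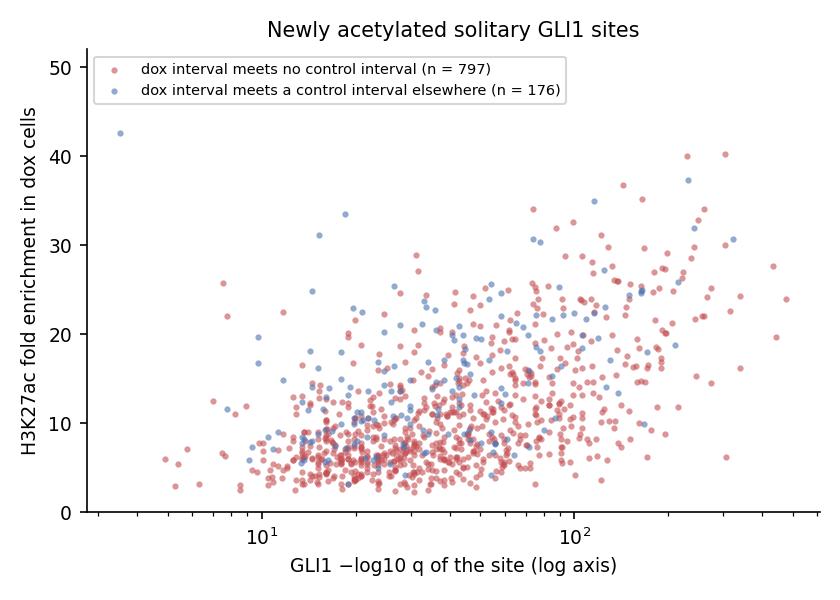
Each point is 1 of the 973 newly acetylated solitary sites, with its GLI1 −log10 q on a log axis (horizontal) and its H3K27ac fold enrichment in induced cells (vertical), in red where the interval met no control interval (797) and in blue where it met one elsewhere (176). The cloud rises with GLI1 strength, and the point at the upper left is the site in Prex1, with the lowest GLI1 −log10 q (3.52) and the highest fold enrichment (42.6).

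The 12 sites with the highest fold enrichment in induced cells reached 32.6 to 42.6 (coordinates are of build mm10). The site in Prex1, which encodes a Rac exchange factor (chromosome 2, 166621142 to 166621242), had 42.6 in an interval of 6785 bp. It also had the lowest GLI1 −log10 q of all 973 sites, 3.52, and its interval met a control interval of 4.44. The site of Ercc6l2, a DNA repair helicase gene (chromosome 13, 63951322 to 63951422), lay 51020 bp from it with a fold enrichment of 40.3 and a GLI1 −log10 q of 303. Prdm8 encodes a histone methyltransferase family member of the nervous system, and the site 15690 bp from it (chromosome 5, 98203144 to 98203244) had 40.0 and 230. Both of these strongly bound sites stood more than 20000 bp from any control interval.

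Hedgehog and developmental genes were among the nearest genes of the top 12. A site 68354 bp from Ptch1, the gene of the Patched receptor (chromosome 13, 63641814 to 63641914), had a fold enrichment of 35.0 and a GLI1 −log10 q of 116, and a control interval of 4.70 lay 330 bp away. The site 5894 bp from Foxa2, a forkhead factor gene of floor plate and endoderm (chromosome 2, 148036883 to 148036983), had 34.0 and 73.6. Its interval was the widest of all, 12428 bp with 23 summits, and the nearest control interval lay 35831 bp away. A site within Bmp5, a gene of the bone morphogenetic protein family (chromosome 9, 75799491 to 75799591), had 32.6 and 99.3. Fgfr2, a fibroblast growth factor receptor gene, was the nearest gene of a site at 197295 bp (chromosome 7, 129965056 to 129965156) with 33.5 and a weak GLI1 −log10 q of 18.5, and a control interval of 4.93 lay 149 bp from it.

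The nearest genes of the remaining 5 of the top 12 were of other kinds, at distances of up to 174646 bp. A site with the interferon regulatory factor gene Irf8 as its nearest gene, at 155959 bp (chromosome 8, 120912653 to 120912753), had a fold enrichment of 37.4. Its interval met a control interval of 13.1, and Foxf1, named below, lay on its other side. The site 31994 bp from the transporter gene Slc22a22 (chromosome 15, 57509619 to 57509719) had 36.7. The site within the sorting nexin gene Snx29 (chromosome 16, 11597922 to 11598022) had 35.2. The peptidase gene Nrd1 and the gene Wdr11 completed the set, with sites at 10927 bp and 174646 bp and fold enrichments of 34.1 and 32.8. In all, 8 of the 12 lay in an interval that met no control interval. At the other end of the range, the narrowest interval, 200 bp with a fold enrichment of 2.82, held the site 18993 bp from Ypel2 (chromosome 11, 87012798 to 87012898).

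Strong GLI1 signal did not always come with strong acetylation. The 8 sites with the highest GLI1 −log10 q, from 306 to 478, had fold enrichments of 6.27 to 30.7. The most strongly bound lay in Khdc3, an oocyte and embryo gene (chromosome 9, 73103662 to 73103762), with a GLI1 −log10 q of 478 and a fold enrichment of 24.0. The next were the site 21699 bp from the cohesin gene Rad21 (chromosome 15, 51940805 to 51940905), with 443 and 19.7, and the site 23745 bp from Gm40595 (chromosome 10, 5697640 to 5697740), with 432 and 27.7. The site in Gulo, the gene of the last enzyme of vitamin C synthesis (chromosome 14, 65996289 to 65996389), had 306 but only 6.27, in an interval of 1211 bp. The others were near Tfap2c (340 and 16.2), the purine receptor gene P2rx4 (339 and 24.3), Tiparp (322 and 30.7) and 1700018B08Rik (315 and 22.6).

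Few of the newly acetylated sites lay at gene ends. The gene table gives the outer coordinates of 21887 protein-coding genes but neither exons nor strand, so a gene end is either end. Only 27 of the 973 (2.77%, 1.91 to 4.01) lay within 1000 bp of one, 450 (46.2%) lay inside a gene and 496 (51.0%) between genes. Of the 424 already acetylated solitary sites 50 (11.8%, 9.06 to 15.2) lay at a gene end. Of the 594 without an overlapping interval it was 19 (3.20%), and of the 344 clustered newly acetylated sites 13 (3.78%). The median distance to the nearest gene end was 38485 bp (35236 to 43752) for newly acetylated and 22123.5 bp for already acetylated sites. Since the rule left out every site in a control interval, nothing is read from the contrasts with already acetylated sites. Fold enrichment hardly differed with position, with medians of 9.22 at gene ends, 10.0 inside genes and 9.78 between them.

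The 6 strongest sites at gene ends had fold enrichments of 14.9 to 21.1, all below the 12 highest of the whole set. Rab3ip, which encodes a Rab exchange factor, had a site at 622 bp (chromosome 10, 116951078 to 116951178) with a fold enrichment of 21.1. Fam126a had a site at 307 bp (chromosome 5, 23914869 to 23914969) with 19.9, and at both genes the interval met a weaker control interval (4.84 and 2.79). Tdo2, which encodes an enzyme of tryptophan breakdown, had a site inside the gene (chromosome 3, 81975596 to 81975696) with 18.6, and its nearest control interval lay 6432 bp away. The fatty acid transporter gene Slc27a3 (18.2), the metalloprotease gene Adamts3 (16.9) and Prrc1 (14.9) followed.

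Within the intervals, the summits of acetylation stood beside GLI1 and not on it. The nearest summit was a median of 276 bp (270 to 284) from the centre of the site, with quartiles of 206 and 343 bp. Only 35 sites (3.60%) had a summit of their own interval within 50 bp, while 945 (97.1%) had one within 500 bp. Summits of the site's own interval stood on both sides at 688 sites (70.7%), and at 129 sites the interval held 1 summit only. When summits of any interval of induced cells were counted, 930 sites (95.6%) had them on both sides within 1000 bp. Counted per 100 sites and 100 bp with both sides added, there were 7.19 summits in the first 100 bp from the centre, 17.3 in the second, 52.8 in the next, and 67.0 between 300 and 400 bp. Beyond 1000 bp the count was 15.2 or less. Site and summit were called from separate libraries, and the rule for membership asked only for 1 bp of overlap.

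The gap was wider where GLI1 was more strongly bound. The median distance to the nearest summit was 230.5 bp (210 to 241) in the weakest class, 252.5 and 270 bp in the middle ones and 324 bp (311 to 339) in the strongest, so the intervals of the outer classes did not overlap. The interval also held more summits there, with a median of 5 against 3. Already acetylated sites had a similar gap in induced cells, 265 bp (253 to 274), with 8.02 summits per 100 sites in the first 100 bp. In control cells the same 424 sites had 22.9 summits in the first 100 bp and 42.5 between 300 and 400 bp, so the dip at the centre was shallower in control cells.

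**Figure D4:**
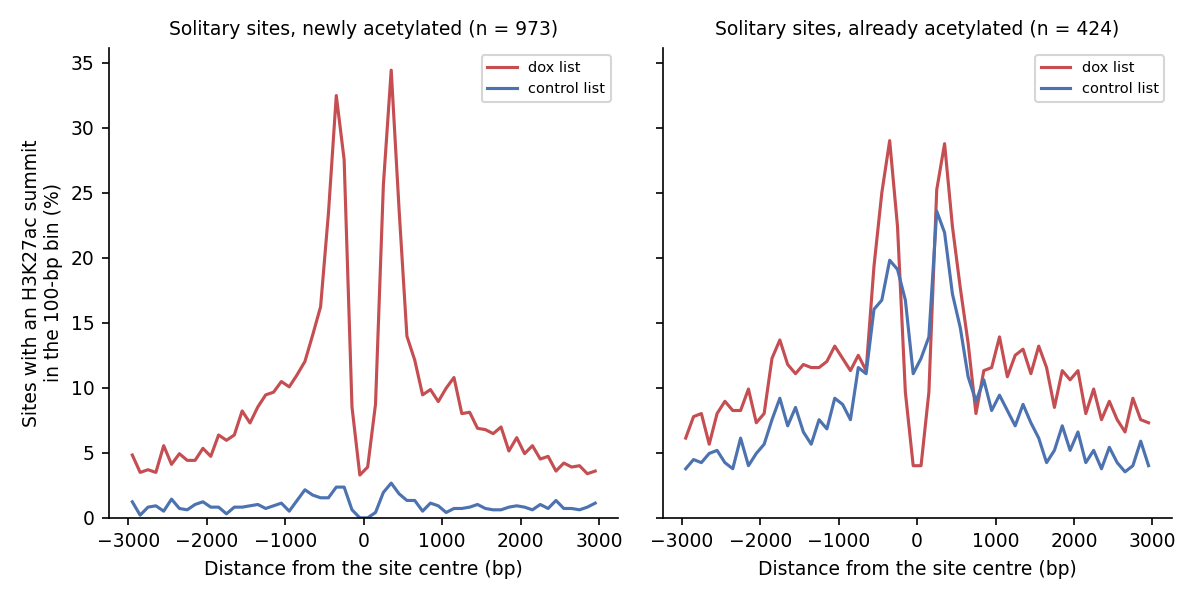
The percentage of sites with an H3K27ac summit in each bin of 100 bp (vertical axis) is drawn by distance from the centre of the GLI1 site (horizontal axis, up to 3000 bp on both sides) for newly acetylated (left) and already acetylated (right) solitary sites, in red for induced (dox) and in blue for control cells. At the 973 newly acetylated sites the induced curve is at 3.29% and 3.91% beside the centre against 32.5% and 34.4% in the bins at 300 to 400 bp, and the control curve of the 424 already acetylated sites dips less (11.1% and 12.3% against 19.8% and 21.9%).

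Genes near the sites were then counted by lists. Of the 21887 protein-coding genes, 1177 (5.38%) had a newly acetylated solitary site within 50000 bp or inside the gene, and 12.9% had a GLI1 site of any kind. Of 47 genes of the Hedgehog pathway and of known GLI targets, 5 (10.6%, 4.63 to 22.6) had a newly acetylated solitary site, an interval that includes the share of all genes, and 22 of the 47 had some GLI1 site. The other 17 had only clustered GLI1 sites or solitary ones of another acetylation state.

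By role, the sites near Hedgehog genes fell at the membrane transducer, at a cytoplasmic inhibitor of GLI factors and at other genes of the list. Smo encodes Smoothened, and the site 16388 bp from it (chromosome 6, 29719009 to 29719109) had a GLI1 −log10 q of 35.1 and a fold enrichment of 7.59, the lowest of the 5 genes. Sufu, whose product holds GLI factors inactive in the cytoplasm, had a site inside the gene (chromosome 19, 46422673 to 46422773) with 39.6 and 17.7. Foxa2 had, besides the site described above, another at 20635 bp (chromosome 2, 148022142 to 148022242) with 48.6 and 17.5. Foxd1, a forkhead gene of kidney stroma and other mesenchyme, had a site at 36666 bp (chromosome 13, 98393371 to 98393471) with 19.9 and 21.6. Snai1, a repressor gene of epithelial to mesenchymal transition, had one at 29303 bp (chromosome 2, 167508792 to 167508892) with 32.5 and 15.8. All 6 sites lay in intervals that met no control interval.

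Among 72 genes of Wnt, BMP, FGF, Notch and retinoic acid signalling, 7 (9.72%, 4.79 to 18.7) had such a site. Bmp5 was described above. Fgfr2 had a site inside the gene (chromosome 7, 130169906 to 130170006) with a GLI1 −log10 q of 179 and a fold enrichment of 24.8. Bmp7, another BMP ligand gene, had one at 1704 bp (chromosome 2, 172942025 to 172942125) with 48.6 and 19.6 in an interval of 9353 bp. The BMP antagonist gene Nog, the ligand gene Wnt11 and the Wnt receptor genes Fzd10 and Fzd4 had fold enrichments of 15.3, 11.0, 9.84 and 8.85.

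The share of genes with a site was 9.38% in the cardiac transcription factor list and 7.50% in the sarcomere and calcium list. In the second heart field and mesoderm list it was 6.90%, against 5.38% of all genes, a share that each list's Wilson interval included. Fold enrichments of these sites lay on both sides of the median of the 973. Of 32 cardiac transcription factor genes, 3 had one, among them the GATA factor genes Gata6 (5.62 at 47155 bp) and Gata5 (4.54 at 16992 bp), both below the median of the 973. Of 40 sarcomere and calcium genes, 3 had one: Nebl, the nebulette gene of the Z-disc (13.2, inside the gene), Xirp1 (7.40 at 8619 bp) and Myl3, a ventricular myosin light chain gene (4.53 at 508 bp). Of 29 second heart field and mesoderm genes, 2 had one: the repressor gene Prdm1, with 16.8 at 27739 bp and 11.9 inside the gene, and Wnt11. Of the genes named here, Nebl, Prdm1 and Wnt11 had a site above the median of all newly acetylated sites.

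Genes of other lineages were counted in the same way. Of 25 endothelial and blood genes, 3 (12%, 4.17 to 30.0) had a site: Nfatc1, a factor gene of the endocardium (9.72 at 274 bp), the ETS factor gene Fli1 (8.27, inside the gene) and the angiopoietin receptor gene Tek (6.69, inside the gene). The smooth muscle gene Smtn (6.16), the pluripotency gene Dppa4 (7.78), the forkhead gene Foxo1 (8.64) and the Sox gene Sox5 (6.05) were found in their lists. None of 20 housekeeping genes had one, which allows up to 16.1%. With the 10 kb rule the Wilson interval of each of the 13 lists included 5.38%. This did not hold under other choices. With genes counted within 100000 bp, 7 of the 32 cardiac transcription factor genes (21.9%, 11.0 to 38.8) had a site. So did 6 of the 29 second heart field and mesoderm genes (20.7%, 9.85 to 38.4). Both intervals, and those of the Hedgehog and the endothelial and blood lists, lay above the 8.80% of all genes. The other lists' intervals included that share. When solitary meant no site within 5 kb, 9 of the 47 Hedgehog genes (19.1%, 10.4 to 32.5), 7 of the 33 forkhead genes (21.2%, 10.7 to 37.8) and 8 of the 72 signalling genes (11.1%, 5.74 to 20.4) had a newly acetylated site, against 5.62% of all genes, and these 3 intervals lay above it.

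**Figure D5:**
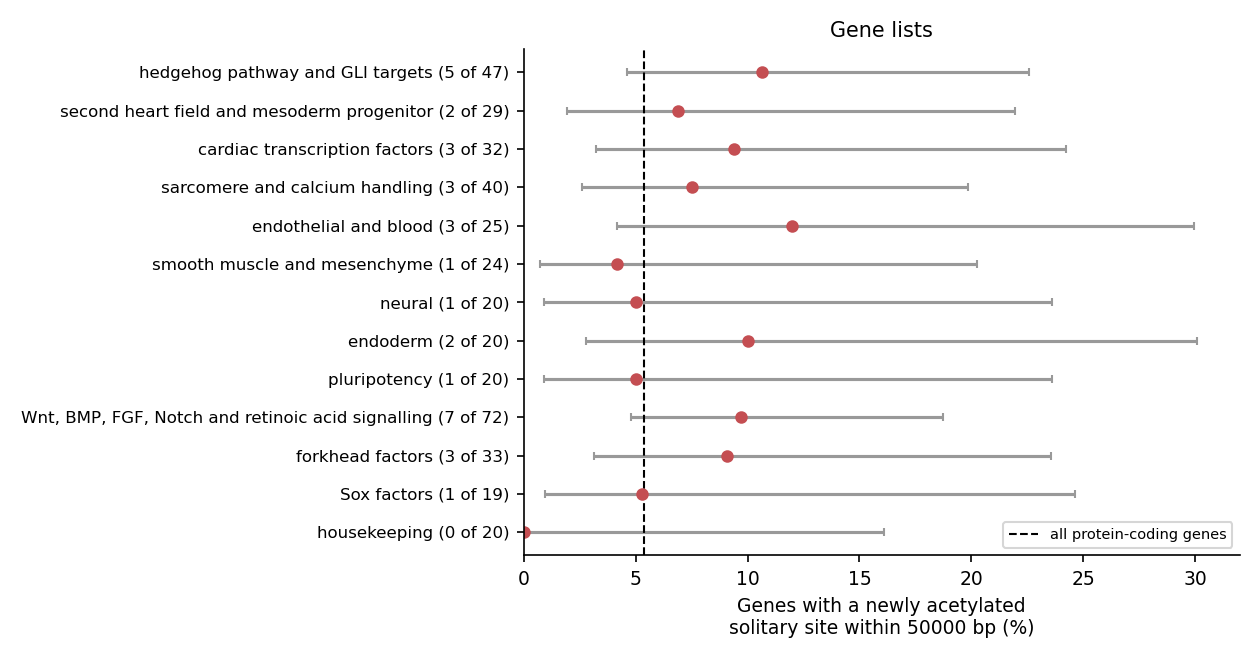
The percentage of each list's genes with a newly acetylated solitary site within 50000 bp (points, with 95% Wilson intervals as bars) is set against the 5.38% of all protein-coding genes (dashed line). The points run from 0% for 20 housekeeping genes to 12% for 25 endothelial and blood genes, and with this 10 kb rule the line crosses every interval.

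The cell type named in the labels was checked by H3K27ac at marker genes. Of 9 cardiac genes, 7 had an interval within the gene or at its ends in both conditions, at 11.0 to 26.7 in control and 7.08 to 21.0 in induced cells, and 6 of the 7 had the lower value in induced cells. None was found at Nkx2-5 and Tbx5. By the same measure, sarcomere genes had an interval in 5 of 6 cases in control (3.35 to 15.4) and 3 of 6 in induced cells (3.15 to 8.43). Endothelial and blood genes had one in 1 of 5 in control (13.2) and 4 of 5 in induced cells (3.13 to 14.7). Among neural markers Sox2 had 7.70 and 7.99 and Nes 10.7 and 31.8 in control and induced cells, while Sox1 and Pax6 had none. Of the pluripotency markers only Nanog had an interval, with 12.8 and 7.87. The endoderm markers Sox17, Apoa1 and Afp had none in either, while Foxa2 had 34.0 in induced cells, through the same interval as the site above. A change in the mix of cells was not tested as part of the new acetylation, and more cells with a mark cannot be told apart from more mark per cell.

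The start sites of neighbouring genes were looked at last. For 396 of the 973 sites the nearest RefSeq start site lay within 50000 bp. Leaving out 33 genes whose start shared the site's own interval left 337 genes, and at 206 of them (61.1%) the start, within 1000 bp, had an interval in both conditions. A start with an interval in induced cells only was found for 27 of the 337 (8.01%), against 2.31% of all 16380 genes. This uses the same pair of lists as the choice of sites, and neighbouring chromatin shares it, so it is a description. Where both conditions had an interval, the log2 ratio of induced over control fold enrichment was centred on its median over all genes, 0.02. The 206 genes had a median of 0.10 (0.01 to 0.20), and 14 of them (6.80%) reached at least 1, against 1.78% of 8027 genes. At most −1 was reached by 5 (2.43%), against 2.85%. The medians near already acetylated solitary sites and near those without an overlapping interval were 0.06 (−0.08 to 0.13) and 0.06 (−0.10 to 0.18). Of the genes there, 4.67% and 1.83% were at 1 or more. The median is thus not particular to the newly acetylated sites. Start sites near already acetylated solitary sites had an interval in induced cells only in 8 of 155 cases (5.16%). Near solitary sites without an overlapping interval it was 14 of 219 (6.39%), so the share was above that of all genes near each kind of site.

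Some of these genes are named here after their values were seen. The start of Fat4, a giant cadherin gene, went from a fold enrichment of 3.99 in control to 29.6 in induced cells (centred log2 ratio 2.87), with a newly acetylated site of 8.27 at 16392 bp. The start of the interleukin receptor gene Il1r1 went from 3.99 to 20.1 (2.31), and that of Ets2 from 8.62 to 19.0 (1.12), near the site at Gm31845 printed above. Starts with an interval in induced cells only included Prdm1 (16.0) and Angptl1 (11.1), an angiopoietin-like gene. The netrin receptor gene Unc5b went the other way, from 56.3 to 14.7 (−1.96), with a newly acetylated site of 11.0 at 26220 bp. A new site and a lower start were thus found at the same gene.

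At the limits of the rule, sites on both sides had values in the same range. The members with the nearest neighbour, 10096 and 10354 bp away, lay 46500 bp from Pja1 and inside Lmx1b, with fold enrichments of 7.99 and 11.1. A pair of sites 9962 bp from each other, 90463 and 80501 bp from Foxf1, just missed the rule with 8.65 and 16.5. The members closest to a control interval, at 2 and 3 bp, lay 9839 bp from Blk and 83013 bp from Tle3, with 6.73 and 8.16. The sites in Ccdc146 and Rnf220 were not taken because 1 and 4 bp of them lay in a control interval (6.01 and 2.70), although they had 17.1 and 9.92 in induced cells.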

How the data were processed

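The GLI1 list holds windows of 101 bp with the authors' −log10 q. The deposited H3K27ac lists give per summit a fold enrichment (a ratio of signal to local background), −log10 p and q, a summit offset and an integer score that was not used. The submitters' processing notes name Bowtie2 2.3.2, SAMtools 1.5 and MACS2 2.1.1 with mm10, without the role of each. Replicates were pooled by the authors, per the deposited file names, and the read depth of the libraries is unknown, so intervals given here cover only the spread or counting over sites.

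Summits of an interval were collapsed to the highest. Sites were overlapped with intervals (1 bp), and distances, Wilson intervals and order-statistic intervals of medians were computed in Python 3.11.15 with pandas 2.3.3, NumPy 2.4.6 and SciPy 1.17.1. Overlap and distance steps were tested on simulated data. Genes came from a RefSeq table of GRCm38.p6, start sites from its promoter table (17492 of 21887 coding genes, none on chromosome 18). The 1112 genes whose start lay in a skipped stretch of running numbers were left out. Sites named are the 12 highest by fold enrichment, the 8 highest by GLI1 −log10 q, the 6 highest at gene ends, the widest and narrowest, those next to the thresholds, all Hedgehog genes and up to 3 genes of each other list; 1 gene under this rule is not reported here. The sites and the 13 gene lists were chosen with earlier results of these data known.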

Additional observations from a re-analysis of the deposited data

How the results depend on the processing

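The choices made were varied one at a time, and 50 of 73 recomputed values stayed near the reported one. The recomputed values were counts, medians and shares of the chosen sites and no contrasts, so a change of direction could not be seen. The number of sites, 973, ran from 797 to 1206, except that the stronger 50% of GLI1 sites alone held 571. The median fold enrichment of 9.91 became 11.05 when the centre base had to lie in the interval, 8.863 when the whole interval had to be free of control intervals, 11.23 with H3K27ac peaks of −log10 q of at least 10, 12.32 in the stronger 50% of GLI1 sites and 7.809 at the summit nearest to the site. The median GLI1 −log10 q became 61.28 in the stronger 50%, as that choice must. The share at gene ends became 12.44% with 5000 bp in place of 1000 bp. The nearest-summit distance became 300 bp with the stricter peaks, 300 bp in the stronger 50% and 361 bp to the highest summit. Of the Hedgehog genes, 5 with a site became 9 when solitary meant no site within 5 kb, 3 within 20000 bp, 8 within 100000 bp and 3 by nearest gene only. All genes then stood at 5.62%, 3.28%, 8.80% and 2.95%. Over the 12 alternatives the Hedgehog list's Wilson interval lay above the share of all genes in 6, so whether the list stands above all genes depends on these choices. The interval lay above in 3 for the endothelial and blood and the signalling lists. It did so in 2 for the cardiac factor and forkhead lists, in 1 for the second heart field list and in 0 for the others. Leaving out sites in skipped stretches (959 sites) and widening each site by 500 bp (1206) were chosen after seeing the data. No paired analysis was possible because each list pools its replicates, for which reason no replicate could be left out. A search for the motif over all sites was not run. Read depth differs between lists by an unknown amount, and weak acetylation in control cells could go unlisted.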

Other observations

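Of the 973 sites, 909 (93.4%) had another interval present only in induced cells within 50000 bp. The same held for 378 of 424 (89.2%) already acetylated sites and 492 of 594 (82.8%) solitary sites without an overlapping interval. Among clustered newly acetylated sites it held for 337 of 344 (98.0%). Around the 973 sites this window held 5325 other intervals present only in induced cells and 1288 present only in control cells, a mean of 5.47 against 1.32 per site, while already acetylated sites had 6.19 against 2.85. The former were more numerous at 786 sites (80.8%) and the latter at 107 (11.0%). The corresponding share with more induced-only intervals was 65.3% around already acetylated solitary sites and 67.7% around those without an overlapping interval. Around clustered newly acetylated sites it was higher, 89.0%, with a mean of 9.67 against 1.10. Over the genome, 33496 intervals were present only in induced cells and 25596 only in control cells. Windows of neighbouring sites can hold the same intervals. Where the interval at a site was itself present only in induced cells, it was not counted. Sites without an overlapping interval had none to leave out, so an interval just beside them was counted. Their shares are thus not fully comparable.

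Of the 594 solitary sites without an interval, 368 (62.0%) had an interval of induced cells within 500 bp and no control interval within 500 bp, so they missed the rule by a short distance.

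Some genes, picked out after their values were seen, had 3 newly acetylated sites within 50000 bp or inside. They were 11 in number, among them Kiz, with all 3 inside the gene and fold enrichments of 11.2 to 20.3, Thsd4 (5.24 to 28.5) and the axon guidance gene Slit3 (3.24 to 10.3), and many of the 11 are long genes, up to 1302 kb for the phosphodiesterase gene Pde4d. By chromosome, the newly acetylated share of solitary sites ran from 34.2% on the X (13 of 38) to 59.4% on chromosome 14 (41 of 69).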
